A study of Mus musculus with 35 samples.

Results

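Carbonic anhydrases are zinc enzymes that turn carbon dioxide and water into bicarbonate and a proton, and back. They set the acidity on both sides of the cell membrane and feed the transporters that carry bicarbonate, protons and lactate. The family divides by where the enzyme works. Car4 is held on the outer face of the membrane by a lipid anchor, Car9 and Car12 span the membrane with their active site outside the cell, Car6 is secreted, and Car2, Car3 and Car13 are cytosolic. In skin, carbonic anhydrases are known from epidermis and its glands, and Car9 is a well-known target of the hypoxia-inducible transcription factor.

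The 7 genes described here, Car2, Car3, Car4, Car6, Car9, Car12 and Car13, were taken by symbol from 22830 gene symbols in each of 2 count tables. They are 7 of the 16 symbols of the carbonic anhydrase family in these tables, and the other 9 are given further on. Car4 was chosen because it was close to absent in WT and raised in Col5a1CKO wounds at day 14, so its values in comparisons that use those wounds are a description and carry no test. The other 6 were chosen by name as members of the family, with earlier results of these data known.

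RNA was sequenced from full-thickness skin wounds of mice in 35 libraries. Col5a1CKO mice carry floxed Col5a1 and a tamoxifen-inducible Cre driven by the Col1a2 promoter, so that the alpha 1 chain of collagen V is deleted in fibroblasts and other cells that use this promoter. WT mice are littermates with floxed Col5a1 and no Cre, and both genotypes received tamoxifen and were wounded. Day 14 after wounding is covered by 7 WT libraries, 7 Col5a1CKO libraries and 3 from Col5a1CKO wounds injected with WT fibroblasts, and day 19 by 3 libraries of either genotype. The sample titles place the injected fibroblasts at day 14, but a treatment entry names them for the day 19 Col5a1CKO wounds, and the titles were followed. The study's text describes the day 14 wounds without fibroblasts as treated with vehicle, which the sample labels leave out. The cilengitide experiment compared vehicle-treated WT mice, vehicle-treated Col5a1CKO mice and Col5a1CKO mice given cilengitide, an inhibitor of alpha v integrins, with 4 libraries a group, and the series places it at day 14. Mice of both sexes were used, replicates are separate animals, and each library is a whole-tissue biopsy from the middle of the wound.

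Totals ran from 15043531 to 35700337 counts in the fibroblast and time-course libraries and from 51211600 to 68266760 in the cilengitide libraries. Values are CPM, counts scaled to library size after TMM normalization, except where RPKM, which also divides by transcript length, is used to compare genes with each other. Col5a1 itself, the targeted gene, had 345 to 2404 CPM in the WT group and 171 to 667 CPM in the Col5a1CKO group at day 14, and 449 to 2627 CPM against 256 to 1321 CPM in the vehicle wounds, so the ranges overlapped. The day 14 libraries fell into 2 sets that differ in how strongly GC-rich genes were counted against GC-poor ones. In the lower set are replicates a to d of WT and a to e of Col5a1CKO, and the upper set holds the other WT and Col5a1CKO libraries and all fibroblast-injected and day 19 libraries. At day 14, the 3 WT libraries of the upper set carry the Y-linked transcript Ddx3y (59.97 to 70.03 CPM), while its 2 Col5a1CKO and 3 fibroblast-injected libraries carry Xist (279 to 741 CPM), so that sex and group cannot be told apart in comparisons with WT within that set. Keratinocyte markers, 7 in number and all detected in every group, summed at day 14 to 30639 to 152386 CPM (WT) and 32.2 to 56971 CPM (Col5a1CKO), and to 59012 to 95492 CPM in WT, 60.6 to 11499 CPM in Col5a1CKO and 31941 to 65918 CPM in cilengitide-treated wounds of the other experiment. In these bulk samples, fewer cells of a type and less RNA per cell cannot be told apart.

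Car4 (NM_007607) lies on chromosome 11 of build NCBI37, from 84771288 to 84779546 on the plus strand. Car13, Car3 and Car2 lie together on chromosome 3, between 14641727 and 14900769. Car9 and Car6 are both on chromosome 4, at 43519838 to 43526601 and 149561124 to 149575441, and Car12 is on chromosome 9 at 66561493 to 66614652. RefSeq promoter windows were found for 4 of the 7 genes, and Car2, Car3 and Car13 have none here. Windows are shown for Car4 and Car12, which moved in opposite directions in these wounds, and for Car9, the textbook hypoxia target. Each is the run of 250 bases before the start, on build GRCm38.p6, which is not the build of the positions above, with letters in capitals where a searched motif matched.

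Car4, chr11:84957504-84957753, plus strand: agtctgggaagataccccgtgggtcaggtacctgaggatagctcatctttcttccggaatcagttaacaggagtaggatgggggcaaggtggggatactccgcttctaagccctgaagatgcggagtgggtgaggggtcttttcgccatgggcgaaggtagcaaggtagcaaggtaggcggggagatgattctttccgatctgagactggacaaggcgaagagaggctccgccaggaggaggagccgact

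Car12, chr9:66713436-66713685, plus strand: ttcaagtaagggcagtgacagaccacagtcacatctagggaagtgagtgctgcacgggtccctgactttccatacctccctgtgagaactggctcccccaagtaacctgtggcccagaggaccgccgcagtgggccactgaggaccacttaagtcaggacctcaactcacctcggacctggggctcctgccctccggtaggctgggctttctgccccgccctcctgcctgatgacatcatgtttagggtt

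Car9, chr4:43506776-43507025, plus strand: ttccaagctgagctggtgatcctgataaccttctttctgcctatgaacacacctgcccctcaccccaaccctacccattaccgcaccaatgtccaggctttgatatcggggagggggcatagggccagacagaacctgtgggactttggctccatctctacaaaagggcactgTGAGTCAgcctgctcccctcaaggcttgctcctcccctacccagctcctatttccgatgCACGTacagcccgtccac

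Motifs were searched on both strands. The core of the hypoxia response element, ACGTG, matched in 16.6% of all 32851 windows of this length, the AP-1 site TGAGTCA in 4.46% and the TATA box TATAAA in 12.4%. The Car9 window held the hypoxia core on the minus strand, beginning 18 bases before the start, and an AP-1 site beginning 77 bases before it, which do not overlap. The Car4 and Car12 windows held no match to the 3 motifs. The Car6 window held the hypoxia core on both strands in a single overlapping match, at 149 and 148 bases before the start.

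Car4 was nearly silent in WT wounds at day 14. It had 0 counts in 5 of the 7 WT libraries and 1 count in each of replicates e and g. In the Col5a1CKO wounds it had 281, 799, 589, 118, 67, 298 and 19 counts in replicates a to g, or a lowest value of 0.589, a median of 9.24 and a highest value of 29.2 CPM. The 2 groups did not overlap, and Col5a1CKO replicate g was closest to WT. By library set, Car4 had 0 counts in the 4 WT libraries and 67 to 799 in the 5 Col5a1CKO libraries of the lower set, and 0 to 1 against 19 and 298 in the upper set. The 4 WT libraries of the lower set also had 0 counts of Car7, Car11, Car14 and Car15, and they detected 12985 to 14798 genes where the other day 14 wounds of both genotypes detected 15188 to 17410. Per length, Car4 in Col5a1CKO wounds (median 5.61 RPKM) was below Car13 (20.1 RPKM) and above Car9 (0.500 RPKM).

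**Figure D1:**
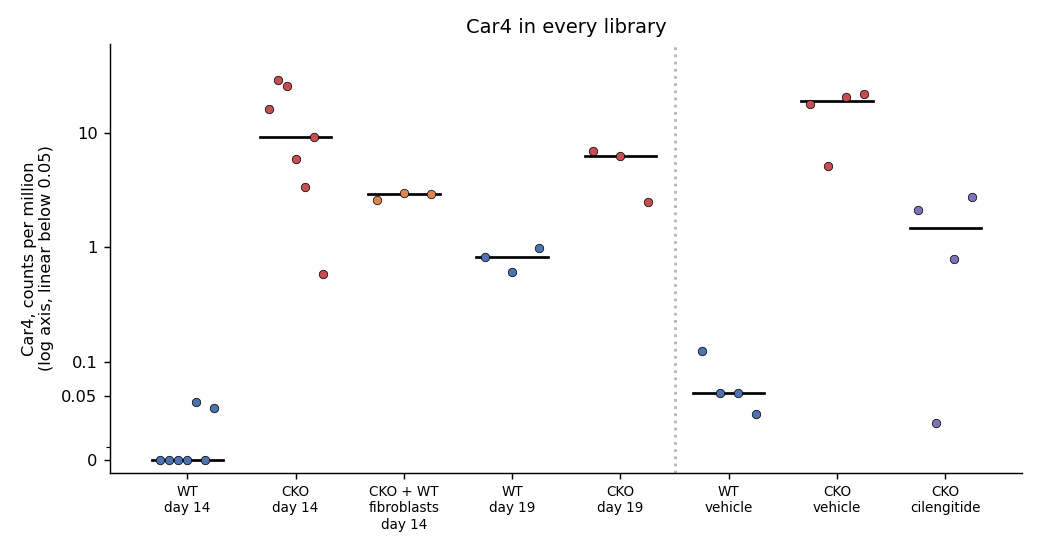
Car4 in every library by group, in CPM on a log axis that is linear below 0.05. Points are libraries, horizontal lines are medians, and the dotted line parts the separately normalized experiments. WT wounds at day 14 and with vehicle sit at or below 0.124 CPM, day 19 WT wounds at 0.613 to 0.980 CPM, and the Col5a1CKO vehicle wounds at 5.10 to 21.97 CPM.

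Col5a1CKO wounds injected with WT fibroblasts kept Car4 above WT. Replicates a, b and c had 2.62, 2.99 and 2.93 CPM, from 83, 108 and 100 counts, and so lay close together. They were above every WT library of day 14 and inside the range of the Col5a1CKO wounds without fibroblasts. The fitted log2 difference from those wounds was -2.18, with a standard error (SE) of 0.97. It was -0.75 within the upper library set, where the wounds without fibroblasts are replicates f and g with 9.24 and 0.589 CPM, so its size depends on the set, and the other Col5a1CKO libraries have no injected wounds beside them.

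At day 19 Car4 was detected in both genotypes. WT wounds had 0.831, 0.613 and 0.980 CPM, from 22, 16 and 20 counts, all above the highest WT value of day 14. Col5a1CKO wounds had 6.96, 6.32 and 2.51 CPM. All 3 Col5a1CKO wounds were higher than all 3 WT wounds. The log2 fold change was 2.76 (SE 0.51), which did not pass in edgeR's quasi-likelihood test (adjusted p = 0.110, and 2.53e-05 to 0.388 over the alternatives). In DESeq2 it passed. The fitted genotype difference of Car4 at day 19 minus that at day 14 was -6.596 on the log2 scale, which is a description since it uses the wounds Car4 was chosen on.

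The cilengitide experiment gave a comparison of Car4 in wounds other than those named in its choice. The genes were chosen with earlier results of these data known, so these tests may not be independent of the choice. Sex was also not balanced between the groups of this experiment, as given under the other observations. WT vehicle wounds had 0.124, 0.0532, 0.0539 and 0.0358 CPM, from 8, 3, 3 and 2 counts. Col5a1CKO vehicle wounds had 17.8, 5.10, 20.6 and 21.97 CPM, from 1039, 365, 939 and 988 counts. Every Col5a1CKO wound was far above every WT wound, and replicate 2 was the lowest of them. The log2 fold change was 7.82 (SE 0.65, edgeR adjusted p = 0.000424), and it stayed between 7.60 and 8.31 with each library left out. With reads pooled relative to library totals, the ratio was 205, with a 95% interval of 126 to 359 that covers counting error only.

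Cilengitide-treated Col5a1CKO wounds had 2.14, 0.0293, 0.791 and 2.78 CPM of Car4, from 151, 2, 50 and 169 counts. All 4 lay below the lowest Col5a1CKO vehicle wound, and replicate 2 was also below the lowest WT vehicle wound, at 2 counts in either. Pooled reads were 9.93 times higher in Col5a1CKO vehicle wounds (8.92 to 11.1, counting error only, without the spread between animals). Against Col5a1CKO vehicle the log2 fold change was -3.50 (SE 1.02, edgeR adjusted p = 0.0417). This call was lost, with adjusted p up to 0.110, when cilengitide replicate 1, 3 or 4 or vehicle replicate 1, 3 or 4 was left out, and at 0.0512 with no filter on low counts, while the log2 fold change stayed between -3.95 and -3.04. Against WT vehicle, Car4 did not reach the minimum count of the test in the reported fit. It was called with no filter on low counts, where no WT library has more than 8 counts. It was also called with all groups in one fit, which holds the Col5a1CKO vehicle wounds as well. Pooled reads in cilengitide-treated wounds were 20.6 times those in WT wounds (12.5 to 36.5, counting error only), and 3 of the 4 treated wounds lay above all WT wounds.

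In the cell markers, neutrophil, macrophage and erythroid genes moved with Car4 between vehicle groups, where 17.5% of all genes were called higher. Of the neutrophil markers tested, 7 of 8 were higher in Col5a1CKO vehicle than in WT vehicle wounds, with sums of 1648 to 44588 against 96.1 to 2207 CPM. All 6 macrophage markers tested were higher, with sums of 3704 to 9563 against 282 to 1008 CPM. Of the erythroid markers, 5 of 6 were higher, with sums of 118 to 1088 against 22.8 to 50.2 CPM. In Col5a1CKO replicate 2, the wound with least Car4, the neutrophil and macrophage sums were the lowest of the group, at 1648 and 3704 CPM, and the erythroid sum was the highest. Replicate 1 had a macrophage sum of 3731 CPM, close to that of replicate 2, with 17.8 CPM of Car4 against 5.10 CPM. Endothelial markers, listed since Car4 is known from capillaries, were higher for 3 of 6 genes, with sums of 399 to 922 against 53.3 to 372 CPM, and fibroblast markers for 2 of 6. With cilengitide, 2 of 8 neutrophil, 4 of 6 macrophage, 3 of 7 erythroid and 0 of 6 endothelial markers were lower than with vehicle. Of all genes, 6.59% were. At day 14, 4 of 8 neutrophil, 3 of 6 macrophage, 5 of 6 erythroid and 4 of 6 endothelial markers were higher in Col5a1CKO than in WT wounds. The share over all genes was 5.57%. Some values went the other way. Col5a1CKO replicate b of day 14 had the most Car4 (29.2 CPM) with a neutrophil sum of 2046 CPM. Fibroblast-injected wounds had neutrophil sums of 8268 to 9901 CPM with 2.62 to 2.99 CPM of Car4. At day 19, macrophage sums were 561 to 2501 CPM in Col5a1CKO and 277 to 4004 CPM in WT wounds. Endothelial sums were higher in Col5a1CKO wounds of that day, as Car4 was, at 686 to 1100 against 280 to 610 CPM. In injected wounds the endothelial sums were 305 to 503 CPM, against 71.5 to 287 CPM in WT wounds of day 14. At day 19, 0 of 7 neutrophil, 0 of 6 macrophage, 0 of 6 erythroid and 0 of 6 endothelial markers were called, against 0.0198% of all genes. The part of these cells in the Car4 result was not tested.

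The genes whose pattern was most like Car4 were ranked among 13792 genes by the smaller of the Pearson correlations of log2(CPM + 1) over the 23 and the 12 libraries. Raet1a, Raet1b and Raet1d, which encode ligands of the NKG2D receptor, came first, at 0.903 and 0.953, 0.899 and 0.963, and 0.895 and 0.954. These paralogs are near-identical, so reads may be split among them and their separate values are uncertain. Il6, an inflammatory cytokine, followed at 0.891 and 0.914, and Steap4, a metalloreductase, at 0.885 and 0.957. Il6 had a median of 0.0692 CPM in WT and 25.5 CPM in Col5a1CKO wounds at day 14, 0.288 and 31.6 CPM in WT and Col5a1CKO vehicle wounds, and 3.15 CPM with cilengitide. Steap4 had medians of 16.1 and 103 CPM at day 14, and 34.8, 159.9 and 45.7 CPM in the same 3 groups of the other experiment. These correlations span the genotype groups, whose differences the points share. The 23 libraries include the day 14 wounds Car4 was chosen on, so a high rank is partly set by that choice. Ranked genes needed a mean of at least 1 CPM in each experiment. The Raet1 genes and Il6 had means below 1 CPM in every WT group and met this through the Col5a1CKO groups. The ranking is a description only. Of the other 6 carbonic anhydrases, Car9 was placed best, at rank 5124, and Car12 ranked 12401 at -0.85 and -0.82.

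Among the membrane enzymes, Car12 ran opposite to Car4. It is the transmembrane form known from secretory and other epithelia. In WT wounds at day 14 it had 114 CPM at the lowest, a median of 189 and 260 at the highest. In Col5a1CKO wounds it had 4.62 CPM at the lowest, a median of 12.1 and 147 at the highest. Replicates d and g, at 147 and 101 CPM, stood apart from the other 5 Col5a1CKO wounds, which had 4.62 to 13.7 CPM, and only replicate d reached into the WT range. The log2 fold change was -2.05 (SE 0.74, edgeR adjusted p = 0.0909), short of the threshold, and DESeq2 gave an adjusted p of 0.0152. Replicates d and g also had the largest keratinocyte sums of the Col5a1CKO wounds, 26803 and 56971 CPM, where the other 5 had 32.2 to 1938 CPM.

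In the vehicle wounds Car12 fell clearly. WT wounds had 151, 158, 182 and 120 CPM, and Col5a1CKO wounds had 12.6, 4.49, 8.40 and 31.9 CPM, with no overlap. The log2 fold change was -3.47 (SE 0.59, edgeR adjusted p = 0.00288). With cilengitide the values were 130, 143, 115 and 99.8 CPM, above all Col5a1CKO vehicle wounds, and the log2 fold change against those was 3.09 (SE 0.58, adjusted p = 0.0115). Both calls held with each library left out. Against WT vehicle, the cilengitide wounds differed by -0.33 (SE 0.15, adjusted p = 0.140), and the groups overlapped.

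At day 19 Car12 had 70.7, 115 and 61.4 CPM in WT and 36.7, 30.03 and 36.3 CPM in Col5a1CKO wounds. The groups did not overlap, and the log2 fold change of -1.18 (SE 0.24) did not pass (edgeR adjusted p = 0.110). It passed in DESeq2, at 0.00123, and without WT replicate c, at 0.0446. Fibroblast-injected wounds had 38.5, 86.3 and 26.7 CPM, all below the lowest WT wound of day 14, and Car12 was lower there than in WT (log2 fold change -1.67, SE 0.41, adjusted p = 0.0351). That call was lost without injected replicate a (adjusted p = 0.168) or c (0.194) and with all groups in one fit (0.178). Within the upper library set, where the WT wounds carry Ddx3y and the injected wounds Xist, it was -2.02 (adjusted p = 0.00893). Against Col5a1CKO wounds without fibroblasts the log2 fold change was 0.26 (SE 1.12, adjusted p = 0.923). This estimate was 0.0021 within the upper set.

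**Figure D2:**
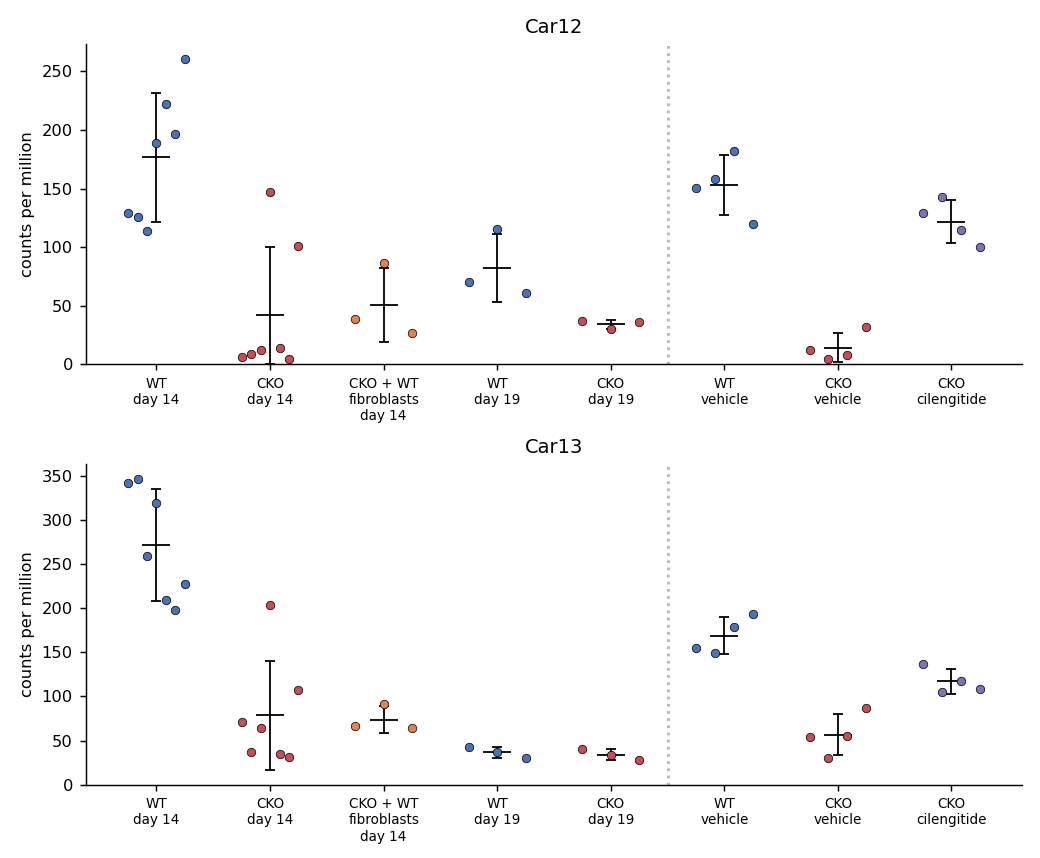
Car12 and Car13 in every library by group, in CPM on linear axes that start at 0. Points are libraries, horizontal marks are means and bars are the SD (cut at 0), and the dotted line parts the separately normalized experiments. Col5a1CKO vehicle wounds have 4.49 to 31.9 CPM of Car12 where WT and cilengitide-treated wounds have 99.8 to 182 CPM, and Car13 at day 19 is 27.6 to 42.1 CPM in both genotypes.

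Car13, a cytosolic enzyme, was the most highly expressed of the 7 per length in WT wounds of day 14, where its median was 76.2 RPKM against 33.6 RPKM for Car12 and 10.2 RPKM for Car2. In CPM it ranged from 198 to 347 with a median of 259 in WT and from 31.8 to 204 with a median of 63.7 in Col5a1CKO wounds. Replicate d was the only Col5a1CKO wound within the WT range. The log2 fold change was -1.79 (SE 0.40, edgeR adjusted p = 0.0132). Within the lower library set it was -1.96 (adjusted p = 0.0410), and within the upper set -1.502, where it did not pass (adjusted p = 0.128). Fibroblast-injected wounds had 66.0, 90.8 and 64.4 CPM, below all WT wounds, with a log2 fold change of -1.75 (SE 0.30, adjusted p = 0.00630), or 0.0544 without injected replicate c. Against Col5a1CKO wounds without fibroblasts the difference was -0.09 (SE 0.55, adjusted p = 0.949).

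Car13 differed between vehicle groups as well. WT wounds had 155, 149, 178 and 193 CPM and Col5a1CKO wounds 54.5, 30.6, 55.2 and 86.8 CPM, without overlap (log2 fold change -1.62, SE 0.29, edgeR adjusted p = 0.00352). With cilengitide it had 137, 105, 117 and 108 CPM, which lay between the other groups and overlapped neither. It was above Col5a1CKO vehicle by 1.05 on the log2 scale (SE 0.29, adjusted p = 0.0344), just past the 2-fold rule, and below WT vehicle by less than 2-fold (-0.53, SE 0.13, adjusted p = 0.0302). The call against vehicle was lost without cilengitide replicate 1 (adjusted p = 0.0634) or 3 (0.0547), without vehicle replicate 3 (0.0874), and without vehicle replicate 2, where the log2 fold change was 0.84. At day 19 Car13 was low in both genotypes, with 42.1, 37.5 and 30.2 CPM in WT and 40.6, 33.7 and 27.6 CPM in Col5a1CKO wounds. The log2 difference there was -0.04 (SE 0.21, adjusted p = 0.926). The genotype difference at day 19 against that at day 14 was 1.72 (SE 0.65), with an unadjusted p of 0.0153 in edgeR and an adjusted p of 0.723, so a change between the days was not shown.

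Between the groups of the cilengitide experiment, keratinocyte markers moved with Car12 and Car13. Of 7 markers, 4 were lower in Col5a1CKO vehicle than in WT vehicle wounds, against 13.4% of all genes. With cilengitide 3 were higher than with vehicle, against 6.48% of all genes. Between cilengitide and WT vehicle 1 was higher and 3 were lower, against 8.58% of all genes in either direction. In the day 14, day 19 and fibroblast comparisons 0 passed, where 0% to 8.28% of all genes were called. Sebaceous gland markers moved the same way, with 4 of 5 lower in Col5a1CKO vehicle and 4 of 5 higher with cilengitide. Their sums were 366 to 811 CPM in WT, 124 to 169 CPM in Col5a1CKO and 269 to 1030 CPM in cilengitide-treated wounds. In the other libraries Car13 did not always follow the keratinocyte sums. WT replicates e to g of day 14, with sums of 99637 to 152386 CPM, had 198 to 227 CPM of Car13. Replicates a to d, with 30639 to 34034 CPM, had 259 to 347 CPM. WT wounds of day 19, with sums of 13981 to 25006 CPM, had 30.2 to 42.1 CPM. Col5a1CKO replicate a of day 14 had 71.3 CPM with a sum of 32.2 CPM. The part of these cells in the Car12 and Car13 results was not tested.

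Car9, the other transmembrane enzyme, had low levels throughout. At day 14 it had 0 to 7.21 CPM in WT, with a median of 1.42, and 0.462 to 3.79 CPM in Col5a1CKO wounds, with a median of 1.35. The log2 difference was 0.02 (SE 0.97), an estimate too wide to call the groups alike. It was 1.29 in the lower and -0.58 in the upper library set. At day 19 it was 1.70, 1.27 and 1.96 CPM in WT and 2.53, 1.47 and 1.25 CPM in Col5a1CKO wounds (log2 difference 0.15, SE 0.42). Col5a1CKO vehicle wounds had 1.37, 1.27, 2.68 and 8.81 CPM, and replicate 4 lay above all others. Without it, the difference from WT vehicle turned from 0.51 to -0.42. Cilengitide-treated wounds had 4.31, 5.35, 3.80 and 4.45 CPM, all above the WT vehicle wounds with 2.96, 2.34, 2.39 and 1.86 CPM, by 0.91 on the log2 scale (SE 0.20, edgeR adjusted p = 0.0239), which is under 2-fold. It was 1.02 (adjusted p = 0.0302) without WT replicate 1, and without Col5a1CKO vehicle replicate 4 the cilengitide wounds were above vehicle by 1.35 (adjusted p = 0.0193) in place of 0.35.

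Car6, the secreted enzyme, was unevenly expressed in WT wounds. At day 14 WT replicates e, f and g had 19.9, 33.9 and 47.8 CPM, while replicates a to d had 0 to 2.27 CPM, so its level followed the library set. The keratinocyte sum did the same, with 99637 to 152386 CPM in replicates e to g and 30639 to 34034 CPM in a to d. In Col5a1CKO wounds it ranged from 0.251 to 8.15 CPM with a median of 0.661. Its log2 fold change was -2.997 (SE 1.26, edgeR adjusted p = 0.140), and it was -0.24 within the lower and -2.91 within the upper set. In vehicle wounds Car6 had 3.47, 46.0, 11.5 and 34.9 CPM in WT and 0.633, 0.266, 4.89 and 5.89 CPM in Col5a1CKO, and the groups overlapped (-3.10, SE 1.15, adjusted p = 0.0558, and 0.00486 to 0.119 over the alternatives). Cilengitide-treated wounds had 8.45, 2.74, 7.005 and 4.44 CPM, and differed from WT by -2.08 (adjusted p = 0.0832). Without WT replicate 1 both differences passed, at -3.47 (adjusted p = 0.0420) and -2.44 (0.0348). In the fibroblast-injected wounds, with 4.61, 2.32 and 0.966 CPM, Car6 was lower than in WT only where the sets were kept apart, with -3.54 within the upper set (adjusted p = 0.00502) against -2.36 over all libraries (adjusted p = 0.458), and there sex goes with the group.

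Car2, the fast and widespread cytosolic enzyme, had no call in the 7 comparisons with edgeR over all libraries. It had 9.86 to 139 CPM in WT (median 27.7) and 13.4 to 61.4 CPM in Col5a1CKO wounds (median 18.1) at day 14. At day 19, 16.7, 13.0 and 10.9 CPM in Col5a1CKO lay above 6.01, 9.54 and 5.54 CPM in WT wounds, a log2 fold change of 1.03 (SE 0.28, adjusted p = 0.135). With cilengitide, replicates 1 and 4 had 62.1 and 62.3 CPM and replicates 2 and 3 had 17.1 and 21.8 CPM. Col5a1CKO vehicle wounds had 13.3 to 19.2 CPM, and the difference was 1.32 (SE 0.45, adjusted p = 0.0644), which passed without cilengitide replicate 2 (1.62, adjusted p = 0.0364). WT vehicle wounds had 11.5, 26.8, 3.67 and 5.13 CPM. Without WT replicate 2, Car2 passed against WT both in Col5a1CKO vehicle (1.24 in place of 0.44, adjusted p = 0.0463) and in cilengitide-treated wounds (2.61 in place of 1.80, adjusted p = 0.0334). Of 6 markers listed for osteoclasts, cells that use much Car2, 4 were found and 3 were tested. Calcr, among those found, had 0 counts in every library of the cilengitide experiment. In Col5a1CKO vehicle wounds 2 of the 3 were higher than in WT vehicle wounds, against 17.5% of all genes. The sums were 555 to 893 against 67.6 to 243 CPM. Between cilengitide and Col5a1CKO vehicle 0 of 3 passed, and 0 of 3 between cilengitide and WT vehicle, against 13.1% and 8.58% of all genes. The part of these cells in the Car2 values was not tested.

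**Figure D3:**
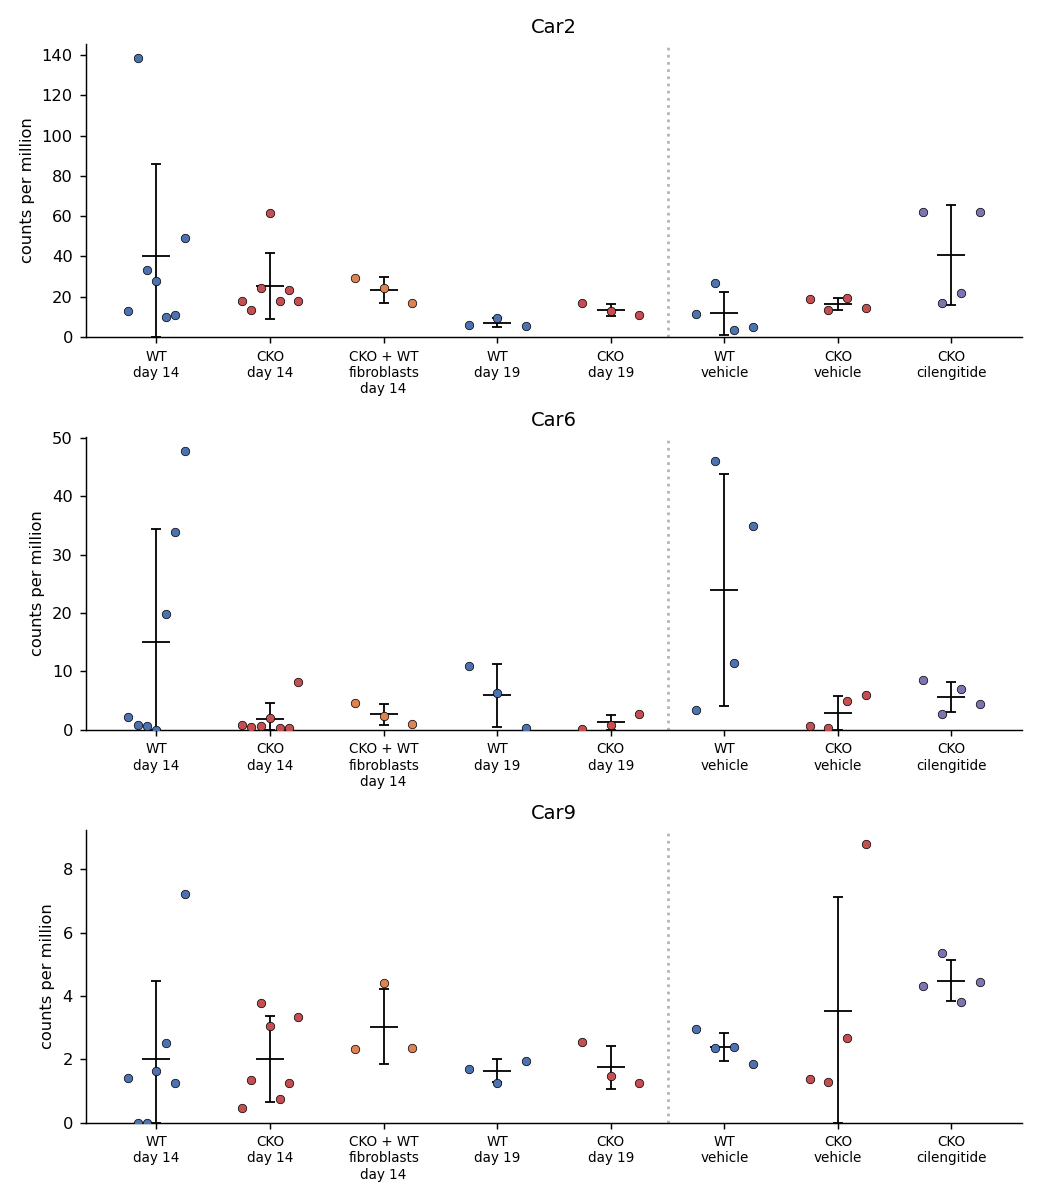
Car2, Car6 and Car9 in every library by group, in CPM on linear axes that start at 0. Points are libraries, horizontal marks are means and bars are the SD (cut at 0), and the dotted line parts the separately normalized experiments. WT libraries spread widely within a group, as for Car6 at day 14, where 3 libraries have 19.9 to 47.8 CPM and 4 have 0 to 2.27 CPM.

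Car3, a cytosolic enzyme of low activity that is abundant in skeletal muscle and fat, had the widest spread. At day 14 it had 0.502 to 378 CPM in WT, with a median of 1.42, and 3.72 to 503 CPM in Col5a1CKO wounds, with a median of 199.7. Its log2 fold change of 1.60 had a standard error of 1.39 (edgeR adjusted p = 0.479). In Col5a1CKO wounds of day 14, replicates a, b, e, f and g had 163 to 503 CPM, and c and d had 15.99 and 3.72 CPM. Skeletal muscle markers, all 8 of which were tested, summed to 1571 to 17261 CPM in the former 5 and to 64.6 and 69.7 CPM in c and d. In 3 other groups 1 library stood above the rest. WT replicate a had 378 CPM at day 14, fibroblast-injected replicate a had 810 CPM where b and c had 12.9 and 28.2 CPM, and Col5a1CKO replicate c had 849 CPM at day 19 where a and b had 39.9 and 54.6 CPM. Without the last, the day 19 difference turned from 2.03 to -0.66. These 3 libraries had the highest muscle sums of their groups, at 9748, 26135 and 33127 CPM, and also the highest sums of 7 adipocyte markers, at 84.0, 78.0 and 259 CPM. In vehicle wounds Car3 had 176, 2.09, 194 and 42.6 CPM in WT and 10.6, 7.62, 2.76 and 0.667 CPM in Col5a1CKO. It was called lower (log2 fold change -4.28, SE 1.36, adjusted p = 0.0330) although WT replicate 2 lay within the Col5a1CKO range. That call was lost, with adjusted p up to 0.0863, without any of the Col5a1CKO wounds and without WT replicate 1 or 3. The muscle sums ran from 36.5 to 3737 CPM in these WT and from 11.1 to 1451 CPM in these Col5a1CKO wounds, and 0 of 8 muscle markers passed. The adipocyte sums were 2.06 to 6.002 and 1.21 to 6.86 CPM, with 1 of 4 markers tested higher and 1 lower, against 17.5% and 13.4% of all genes. The part of muscle and fat in these values was not tested.

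**Figure D4:**
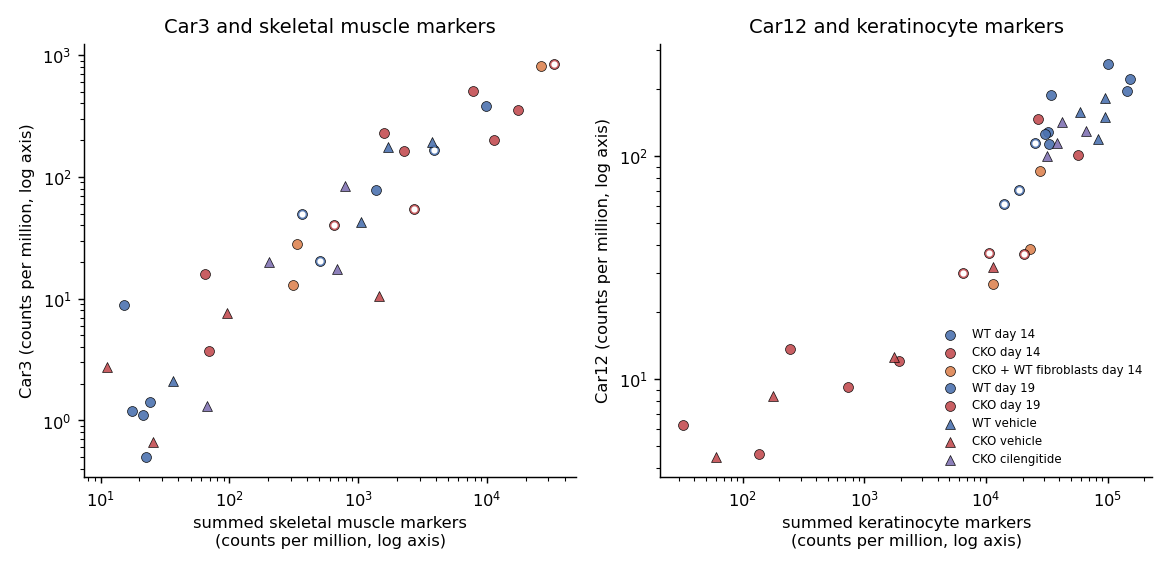
Left, Car3 against the sum of 8 skeletal muscle markers, and right, Car12 against the sum of 7 keratinocyte markers, each point a library and all axes in CPM on log scales. Circles are the fibroblast and time-course libraries, with a white centre at day 19, and triangles the cilengitide experiment. The library with most Car3 (849 CPM) also has the largest muscle sum (33127 CPM), and Car12 is at most 13.7 CPM in each library whose keratinocyte sum is 1938 CPM or less.

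Counted over the family, few of these enzymes passed at day 14 and more in the vehicle wounds. Between Col5a1CKO and WT at day 14, 1 of the 6 enzymes other than Car4 was called, Car13, where 8.28% of the 14367 genes tested were called (5.57% higher and 2.71% lower), and none of the 6 had groups without overlap, against 4% of genes. At day 19, 0 of 7 were called, against 0.0198% of 15135 genes. Unadjusted p was under 0.05 in edgeR for 3 of the 7 and for 24.1% of genes. DESeq2 called 3 of 7, Car2, Car4 and Car12, and 9.23% of genes. Car2, Car4 and Car12 did not overlap there, as 34.9% of genes did not. In Col5a1CKO wounds with against without fibroblasts, 0 of 6 were called, and 0% of 15659 genes. There 0 of the 6 and 12.8% of genes had an unadjusted p under 0.05 in edgeR, DESeq2 called 0 of 6 and 0.121% of genes, and 2.08% of genes were without overlap. Against WT, the injected wounds had 2 of 6 called, Car12 and Car13, with a background of 5.84% (3.77% higher and 2.06% lower), and both were without overlap, against 20.2% of genes.

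In the vehicle comparison 4 of 7 were called, Car4 higher and Car3, Car12 and Car13 lower, where 30.9% of 15434 genes were called (17.5% higher and 13.4% lower). Car4, Car12 and Car13 did not overlap, as 49.3% of genes did not. Between cilengitide and vehicle 3 of 7 were called, Car4 lower and Car12 and Car13 higher, against 13.1% of genes (6.48% higher and 6.59% lower), and the same genes did not overlap, against 31.5%. Between cilengitide and WT vehicle 0 of the 6 tested were called in edgeR against 8.58% of genes. DESeq2 called 2 there and 14% of genes, and 4 of the 6 had an unadjusted p under 0.05 in edgeR, as did 40.2% of genes. Car9 and Car13 did not overlap there, against 30% of genes. The 3 comparisons of the cilengitide experiment share their groups, and so do the day 14 comparisons. For the change between days, 0 of 6 and 0% of 15954 genes were called, with 1 of the 6 and 5.89% of genes at an unadjusted p under 0.05 in edgeR.

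**Figure D5:**
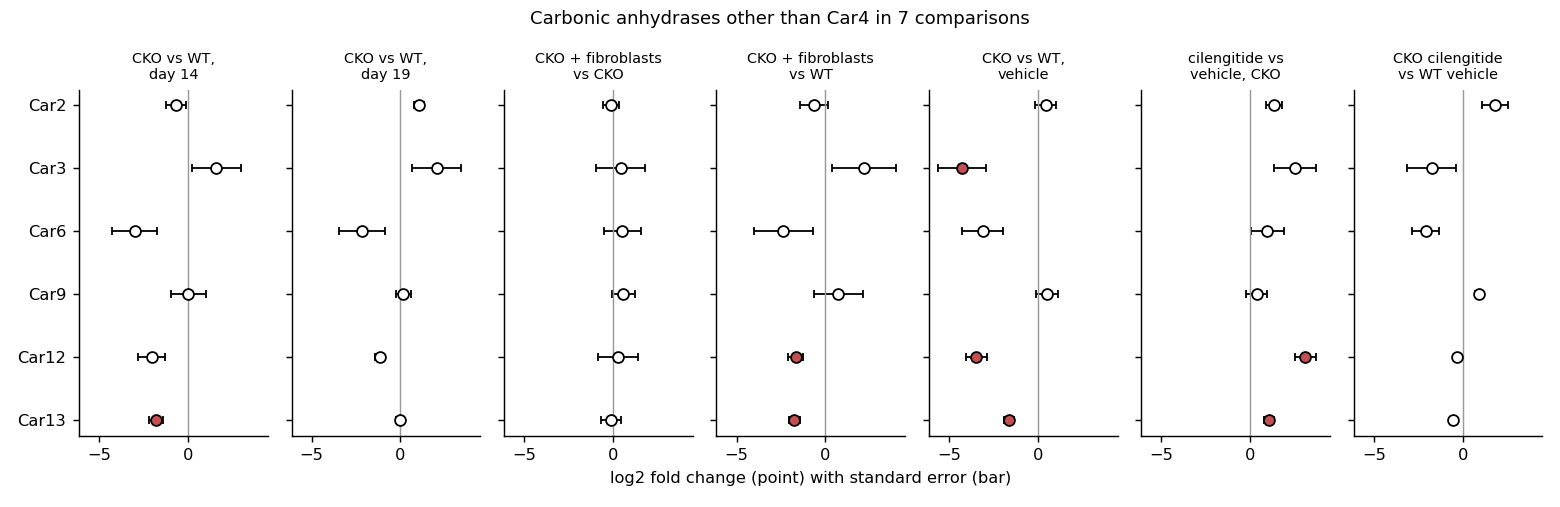
Log2 fold changes of the 6 carbonic anhydrases other than Car4 in 7 comparisons, with bars for the standard error. Filled points passed an adjusted p of 0.05 and 2-fold in edgeR. Car12 and Car13 are on the lower side in Col5a1CKO vehicle wounds (-3.47 and -1.62) and on the higher side with cilengitide (3.09 and 1.05).

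The other 9 genes of the family were at low levels or were not called in most comparisons. Some of their estimates were wide, as for Car14 at day 19 (1.996, SE 1.74), so a lack of change was not shown. Between vehicle groups, Car5b, a mitochondrial enzyme, was higher in Col5a1CKO (10.4 ± 3.7 against 4.06 ± 0.52 CPM, SD, n = 4 each, log2 fold change 1.31, edgeR adjusted p = 0.00594). Car11, a related protein without enzyme activity, was lower (0.234 ± 0.140 against 1.06 ± 0.29 CPM, log2 fold change -2.21, adjusted p = 0.0211). These were 2 of the 5 tested there, where 30.9% of all genes were called. In the other comparisons 0 of the 2 to 6 tested were called, against 0% to 13.1% of all genes. Between cilengitide and WT vehicle, Car5b was higher by less than 2-fold (0.92, edgeR adjusted p = 0.0212). Car1, the neighbour of Car3 on chromosome 3, stayed at or below 0.0947 CPM in all libraries.

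Of the bicarbonate transporters, which pass on the product of these enzymes, 4 of 11 tested were called between vehicle groups, where 30.9% of all genes were. Slc4a3 was higher and Slc4a11, Slc4a9 and Slc26a9 were lower, with log2 fold changes of 1.40, -1.16, -4.53 and -2.81. The median of the 11 was 0.46 against 0.02 over all genes. In fibroblast-injected against WT wounds 1 of 11 was called, Slc26a4 (pendrin, an anion exchanger), at 8.82 ± 1.15 (SD, n = 3) against a mean of 0.0802 CPM in WT. At day 14, 0 of 10 were called between Col5a1CKO and WT, 0 of 10 at day 19 and 0 of 11 between wounds with and without fibroblasts and between cilengitide and vehicle. Between cilengitide and WT vehicle, Slc4a3 and Slc4a4 were higher (1.09 and 1.45) and Slc4a9 was lower (-1.77), 3 of 11. Of all genes, 8.58% were called there and 5.84% between injected and WT wounds. Where no transporter was called, the shares over all genes were 8.28% at day 14 and 0.0198% at day 19. They were 0% between wounds with and without fibroblasts and 13.1% between cilengitide and vehicle.

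Of the acid and lactate exporters, Tcirg1, a subunit of the vacuolar proton pump, and Slc16a3, a lactate transporter, were the 2 of 14 called between Col5a1CKO and WT at day 14, both higher (1.17 and 2.14). The same 2 were higher in injected than in WT wounds (1.498 and 3.25). Between vehicle groups 6 of 15 were higher and 2 were lower, against 17.5% and 13.4% of all genes. Tcirg1 (2.26), the sodium-proton exchanger Slc9a8 (1.42) and the proton channel Hvcn1 (2.21) had the smallest adjusted p among the higher ones. Slc9a2 was lower by 4.04 on the log2 scale, and Slc9a3 was at 0 in all 4 Col5a1CKO vehicle libraries against a mean of 1.13 CPM in WT. With cilengitide, Hvcn1 and Tcirg1 were lower than with vehicle (-1.49 and -1.09), 2 of 14, and against WT vehicle Tcirg1, Slc16a3 and Slc9a5 were higher (1.21, 1.93 and 1.65). At day 19 and between wounds with and without fibroblasts 0 of 14 were called, against 0.0198% and 0% of all genes. Of all genes, 8.28% were called at day 14 and 5.84% between injected and WT wounds. With cilengitide the share was 13.1% against Col5a1CKO vehicle and 8.58% against WT vehicle.

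Hypoxia targets, listed because Car9 belongs among such genes, had most calls between vehicle groups. At day 14 P4ha1 was higher (1.17) and Higd1a lower (-1.86), 2 of 14, with a median of -0.10 against -0.03 over all genes. Between vehicle groups 5 of 14 were called higher and 0 lower, against 17.5% and 13.4% of all genes, and 11 of 14 had a log2 difference above 0, with a median of 1.27 against 0.02, led by Adm (2.40), P4ha1 (1.93) and Ndrg1 (1.28). With cilengitide P4ha1 was lower than with vehicle (-1.33), the 1 called of 14, while 13 of 14 had a log2 difference below 0, with a median of -0.56 against -0.06. Against WT vehicle Adm was higher (1.93), the 1 called, with 11 of 14 above 0. In injected against WT wounds Higd1a was lower (-1.69). At day 19 and between wounds with and without fibroblasts 0 of 14 were called, with medians of 0.43 and -0.01. Of all genes, 0.0198% and 0% were called there. The shares over all genes were 8.28% at day 14 and 5.84% between injected and WT wounds. With cilengitide they were 13.1% against Col5a1CKO vehicle and 8.58% against WT vehicle. Car9 itself was called in none of these comparisons with edgeR.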

How the data were processed

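The authors deposited raw counts per RefSeq transcript for the fibroblast and time-course libraries and per gene symbol for the cilengitide libraries. The methods describe stranded libraries sequenced single-end for 50 bases, with HISAT2 as aligner, mm9 as genome and RefSeq exons as the units counted. Whether this covers the cilengitide libraries is not given in the sources used here. Rows without a gene name (up to 0.0694% of counts) were left out and the row with most counts was kept per symbol. RPKM was computed from the deposited lengths.

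For each pair of groups, all genes that reached 10 counts by filterByExpr entered the robust quasi-likelihood test of edgeR 4.0.16 (R 4.3.3) with TMM normalization. A call needs a Benjamini-Hochberg adjusted p under 0.05 over all genes and a fold change of at least 2. Alternatives included DESeq2 1.42.0, other normalizations and filters, the library set and leaving out replicates. The scripts were tested on simulated data. The 7 genes and the lists were chosen with earlier results of these data known. All 7 are named throughout, and of each list up to 3 called genes in each direction with the smallest adjusted p. Motifs were searched in RefSeq windows of GRCm38.p6. Library sets were parted at the widest gap (1.54 on the log2 scale) between GC-rich and GC-poor genes. Intervals cover counting error only.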

Additional observations from a re-analysis of the deposited data

Results flagged for a closer look

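In 5 of 35 sets of values, each an enzyme in a group of at least 4 libraries, 1 library stood apart by Dixon's criterion. Chance meets it in about 1 of 20 sets only where values are normally distributed and come from 1 population. CPM was not transformed here, and the day 14 groups mix 2 library sets, so 5 of 35 cannot be set against that rate. At day 14, Car2 was 139 CPM in WT replicate b against 9.86 to 49.1 CPM in the other WT wounds, and 61.4 CPM in Col5a1CKO replicate d against 13.4 to 24.4 CPM. Car3 was 378 CPM in WT replicate a against 0.502 to 77.4 CPM. Car9 was 7.21 CPM in WT replicate g against 0 to 2.51 CPM. Car6 was 8.15 CPM in Col5a1CKO replicate g against 0.251 to 1.96 CPM.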

How the results depend on the processing

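Of the counts of enzymes called, 74 of 93 recomputed values stayed within 1.5 times the reported count. At day 14 the count of 1 became 3 with DESeq2 (14.6% of all genes), 2 with all groups in one fit, 2 with the replicate block and 0 within the upper library set. At day 19 the count of 0 became 3 with DESeq2 and ranged from 0 to 1 with a replicate left out. Between wounds with and without fibroblasts it became 1 with the replicate block, and between injected and WT wounds 1 with all groups in one fit and 0 to 2 with a replicate left out. Between cilengitide and vehicle it became 5 with DESeq2 (18.4% of all genes) and 1 to 4 with a replicate left out. Between cilengitide and WT vehicle it became 2 with DESeq2, 1 with no filter, 1 with all groups in one fit (Car4 in these last 2 settings) and 0 to 2 with a replicate left out. Deviations of same-letter wounds correlated at -0.461 to 0.572 at day 14 (5 of 7 letters above 0), -0.434 to -0.317 at day 19, -0.195 to 0.413 for wounds with against without fibroblasts and 0.0176 to 0.391 for injected against WT wounds. In each comparison at least 1 letter was below 0.1, so the letters were not taken as pairs. With the block, Car12 passed at day 14 (-3.30, adjusted p = 0.0237 in edgeR) and between wounds with and without fibroblasts (2.34, adjusted p = 0.0348).

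Log2 differences that changed sign were all short of the call in the reported fit. For Car9 at day 14 they were -0.013 with no filter, -0.0066 with all groups in one fit and -0.58 within the upper set, and for Car9 at day 19 -0.21 by library size only and -0.22 to 0.36 with a replicate left out. At day 19, leaving out a replicate gave -0.66 to 3.25 for Car3 and -0.19 to 0.11 for Car13. Between wounds with and without fibroblasts, the replicate block gave 0.35 for Car2, -0.56 for Car3 and 0.39 for Car13, the library set as a covariate gave 0.19 for Car2, -0.68 for Car6, -0.069 for Car12 and 0.078 for Car13, the upper set gave 0.24 for Car2, -0.60 for Car6 and 0.15 for Car13, and library size only gave 0.0054 for Car13. Leaving out an injected replicate gave -0.29 to 0.10 for Car2, -3.35 to 0.999 for Car3, -0.14 to 0.93 for Car6, -0.37 to 0.57 for Car12 and -0.27 to 0.0020 for Car13. Between injected and WT wounds, the covariate gave 0.17 for Car2 and -0.12 for Car9, the upper set 0.16 and -0.13, the block 0.90 for Car6, and leaving out a replicate -1.64 to 2.72 for Car3. Car9 between vehicle groups ranged from -0.42 to 0.78 with a replicate left out. The causes were not tested. At these depths Car4 in WT wounds, Car9 and Car1 rest on few counts, and 3 animals in a group leave wide errors.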

Other observations

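The Y-linked gene Ddx3y and the X-inactivation transcript Xist show the sex of most libraries, and Car4 was lower in the Col5a1CKO libraries with Xist. At day 14, Car4 was 16.2, 29.2, 25.9 and 5.93 CPM in Col5a1CKO replicates a to d, which carry Ddx3y, and 3.37, 9.24 and 0.589 CPM in replicates e to g, which carry Xist. The ranges overlap, and sex goes partly with the library set, since replicates a to e are in the lower set and f and g in the upper. With cilengitide, replicates 1 and 4 (Ddx3y) had 2.14 and 2.78 CPM and replicates 2 and 3 (Xist) had 0.0293 and 0.791 CPM. Replicates 1 and 4 were also the wounds with 62.1 and 62.3 CPM of Car2, against 17.1 and 21.8 CPM. In Col5a1CKO vehicle, replicates 1, 3 and 4 carry Ddx3y, and replicate 2, with the least Car4 (5.10 CPM), had 0 CPM of Ddx3y and 0.922 CPM of Xist, so neither transcript marks it. In WT vehicle, 2 of the 4 libraries had 0 counts of Ddx3y. Sex is thus not balanced in the Car4 comparisons of Col5a1CKO vehicle with WT vehicle and with cilengitide. The fibroblast-injected and day 19 Col5a1CKO libraries all carry Xist, with Ddx3y at most 0.304 and 0.289 CPM. The study's figure legends name a male animal in both of these groups, which these transcripts do not show. The pattern of Car4 with sex was noticed after the values were seen and was not tested.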
